A study of Mus musculus with 8 samples.

Results

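The 10 genes of the dual-specificity MAP kinase phosphatases (Dusp1, Dusp2, Dusp4, Dusp5, Dusp6, Dusp7, Dusp8, Dusp9, Dusp10 and Dusp16) were followed in mouse epiblast at embryonic day 5.5, with and without induction of ERK. They were taken by symbol from the 52636 Ensembl genes of the count table. All 10 were found, and all 10 were among the 18321 genes with enough counts to be tested. The study measured RNA in 8 libraries to map the transcriptional response to ERK. Epiblasts were pooled in groups of 10, and 7 ng of the pooled RNA went into each library. All embryos carried Sox2Cre, which recombines in the epiblast, and CRAFR26, an inducible construct that switches on ERK and came from targeted embryonic stem cells, of which clone 4 and clone 8 were used. One condition was culture for 4 h with 250 nM 4-hydroxytamoxifen (4OHT), to switch the construct on, and the other was ethanol vehicle. There were 2 libraries of each clone and condition, called here vehicle clone 4, 4OHT clone 4, vehicle clone 8 and 4OHT clone 8. The vehicle libraries are titled 0 h but labelled as 4 h in vehicle, so that a contribution of the culture itself and that of 4OHT cannot be told apart if the title is right. The controls also carried Cre and the construct, and no group without the construct was analysed here. Nothing in the labels ties replicates to separate litters, so p-values measure the spread between these pools.

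MAP kinases are switched on when a kinase adds phosphates to a threonine and a tyrosine of their activation loop. The phosphatases of this family remove both phosphates and so switch the kinase off. Several of their genes are themselves induced by ERK, and they are among the best known negative feedback genes of the FGF and ERK pathway, which is active in the early embryo. The nuclear inducible members are Dusp1, Dusp2, Dusp4 and Dusp5. Dusp6, Dusp7 and Dusp9 encode cytoplasmic enzymes that prefer ERK. Dusp8, Dusp10 and Dusp16 encode enzymes that prefer the stress kinases JNK and p38.

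Promoter sequences from RefSeq (build GRCm38.p6), covering 250 bases before the transcription start, were found for 8 of the 10 genes; the others were Dusp4 and Dusp9. Of these, 4 are shown because of how the genes behaved: Dusp1 and Dusp6 rose in clone 8, Dusp7 stood opposite to them, and Dusp5 is a nuclear member with no call. Bases inside an annotated exon of a protein-coding gene were left out. Capitals mark a match to a cAMP response element (TGACGTCA), an AP-1 site (TGANTCA), an ETS site (CCGGAAGT), an EGR site (GCGTGGGCG) or a CArG box, the site of serum response factor, on either strand.
Dusp1 (chr17:26508520-26508722, minus strand): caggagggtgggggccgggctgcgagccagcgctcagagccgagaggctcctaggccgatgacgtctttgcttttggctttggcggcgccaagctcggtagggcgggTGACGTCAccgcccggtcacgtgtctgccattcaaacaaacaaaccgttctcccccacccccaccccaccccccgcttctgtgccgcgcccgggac
Dusp5 (chr19:53528895-53529108, plus strand): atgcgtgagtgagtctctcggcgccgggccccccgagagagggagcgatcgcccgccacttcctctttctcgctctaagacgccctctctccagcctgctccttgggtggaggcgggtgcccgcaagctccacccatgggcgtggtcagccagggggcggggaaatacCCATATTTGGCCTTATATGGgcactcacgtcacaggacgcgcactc
Dusp6 (chr10:99262981-99263230, plus strand): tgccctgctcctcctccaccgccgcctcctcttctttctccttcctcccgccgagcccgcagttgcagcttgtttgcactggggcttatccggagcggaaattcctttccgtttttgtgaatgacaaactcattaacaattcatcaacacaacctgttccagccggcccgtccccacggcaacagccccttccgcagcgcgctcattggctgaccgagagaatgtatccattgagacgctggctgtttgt
Dusp7 (chr9:106368382-106368631, plus strand): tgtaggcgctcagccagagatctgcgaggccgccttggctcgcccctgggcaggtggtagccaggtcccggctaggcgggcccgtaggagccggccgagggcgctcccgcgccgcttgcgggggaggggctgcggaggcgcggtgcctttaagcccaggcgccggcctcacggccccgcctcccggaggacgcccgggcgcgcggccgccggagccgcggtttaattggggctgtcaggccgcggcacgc
The Dusp1 window lies before the RefSeq start, which is inside the longer Dusp1 gene of GENCODE M21. It held 1 cAMP response element, 143 bases before that start. That motif was present in 1.55% of the 32851 windows of this length in the RefSeq table, and of the 8 phosphatase windows those of Dusp1 and Dusp8 held it. The Dusp5 window held 2 CArG boxes, which lie side by side without overlap 82 and 72 bases before the start. A CArG box was found in 1.47% of all windows and in no other of the 8. The windows of Dusp6 and Dusp7 held none of the 5 motifs. The AP-1, ETS and EGR motifs were found in 6.75%, 2.88% and 0.536% of all windows and in 0 of the 8.

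Total counts (in mega, M) ran from 33.3 M to 37.96 M in vehicle and from 56.4 M to 72.5 M in 4OHT libraries, so that depth did not overlap between the conditions. Levels are given in CPM, counts per M after TMM scaling of the library sizes. Esr1, the gene of estrogen receptor alpha, stood at 0.187 to 0.723 CPM in vehicle and 5.92 to 6.75 CPM in 4OHT libraries. The level thus differed between the conditions (log2 fold change 4.00 over both clones, SE 0.34, edgeR adjusted p 0.00442), although the controls also carried the construct. Whether any of these reads come from the construct, and why the level differed, was not tested. The 8 epiblast markers summed to 2540 to 2830 CPM in vehicle and 1953 to 2283 CPM in 4OHT libraries, with none at 0. Markers of the tissues removed by dissection were also present: all 12 of visceral endoderm and all 12 of extraembryonic ectoderm were detected in every library. The 7 decidua and blood markers summed to 10.1 to 31.4 CPM, with Ptprc, of blood cells, at 0 in 3 libraries and the globin gene Hbb-bs at 0 in 4. In bulk samples, fewer cells of a type and less RNA per cell cannot be told apart.

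Per length of exon, Dusp9 and Dusp6 stood far above the rest. Over the 8 libraries Dusp9 averaged 112 CPM per kb and Dusp6 72.3, placing them above 96.8% and 94.7% of 18293 genes with a length. Between them they made up 70.7% to 82.6% of the summed CPM per kb of the family in each library. Dusp4 averaged 22.7 CPM per kb and Dusp1 17.9, followed by Dusp7 at 5.19, Dusp5 at 3.38, Dusp16 at 2.24, Dusp2 at 1.64, Dusp10 at 1.44 and Dusp8 at 0.514. Dusp9 ran from 51.8 to 151 and Dusp6 from 48.0 to 108, so that these neighbours overlapped. The order had 2 gaps, between Dusp6 and Dusp4 (12.2 to 39.2), and between Dusp1 (10.2 to 35.8) and Dusp7 (3.05 to 8.24); all other neighbours overlapped. In 4OHT clone 8 replicate 2 the level of Dusp9 per kb was 0.953 times that of Dusp6, while in the other libraries the ratio was 1.08 to 2.23. The JNK and p38 phosphatases were the least abundant class, with Dusp8 above only 31.3% of tested genes.

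**Figure D1:**
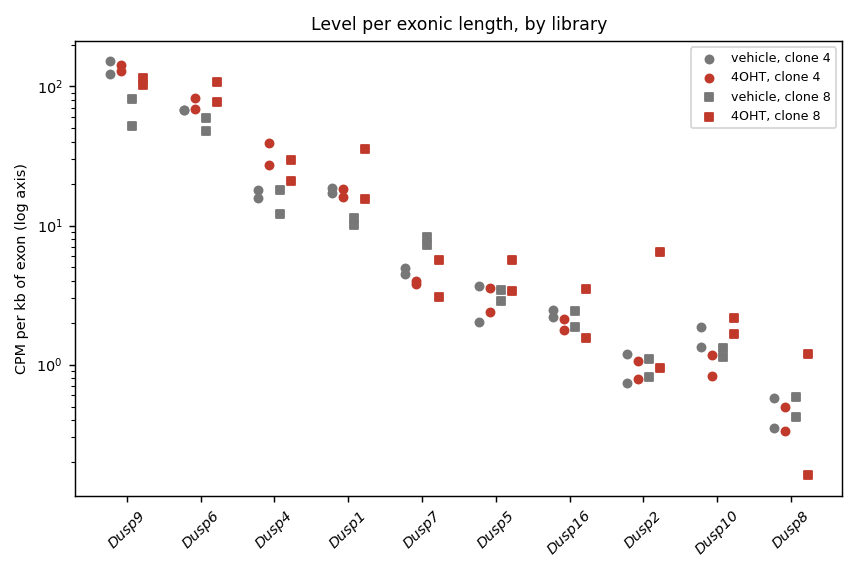
Level of each gene in CPM per kb of exon (log axis) in each of the 8 libraries; grey marks vehicle and red 4OHT, circles clone 4 and squares clone 8. Dusp9 and Dusp6 lie between 48.0 and 151, above every value of the other 8 genes.

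Among the nuclear inducible members, Dusp1 rose in clone 8 and Dusp4 was higher with 4OHT in each clone, although it did not pass the main test. Dusp1 (Ensembl ENSMUSG00000024190, GRCm38 chromosome 17, 26505590 to 26562128, minus strand) encodes an immediate early phosphatase that acts on p38 and JNK as well as ERK. It stood at 56.4 and 61.9 CPM in vehicle clone 4, 53.1 and 60.7 in 4OHT clone 4, 37.5 and 33.6 in vehicle clone 8, and 51.4 and 118 in 4OHT clone 8. The clone 4 libraries overlapped, while both 4OHT libraries of clone 8 lay above both vehicle libraries, with replicate 2 far above replicate 1. In clone 8 the vehicle mean was 35.6 ± 2.71 CPM and the 4OHT mean 84.9 ± 47.4 CPM (SD, n = 2 each). The log2 fold change was 1.25 in clone 8 (SE 0.32, edgeR adjusted p 0.0297) and -0.05 in clone 4 (SE 0.31, edgeR adjusted p 0.977). The clone 8 call was kept without 4OHT clone 8 replicate 1, at 1.73, and lost without any 1 of the other 7 libraries, from 0.52 without 4OHT clone 8 replicate 2 to 1.31 without vehicle clone 8 replicate 1.

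Dusp4 (ENSMUSG00000031530, chromosome 8, 34807297 to 34819894, plus strand) encodes a nuclear phosphatase of ERK, JNK and p38. It stood at 43.1 and 49.7 CPM in vehicle clone 4, 75.1 and 107 in 4OHT clone 4, 33.4 and 49.4 in vehicle clone 8, and 57.1 and 81.3 in 4OHT clone 8. All 4 4OHT libraries lay above all 4 vehicle libraries. Clone 4 averaged 46.4 ± 4.62 CPM in vehicle and 91.3 ± 22.8 CPM with 4OHT, and clone 8 averaged 41.4 ± 11.3 and 69.2 ± 17.1 CPM (SD, n = 2 per group). The log2 fold changes were 0.98 (SE 0.25, edgeR adjusted p 0.172) in clone 4 and 0.74 (SE 0.25, edgeR adjusted p 0.0688) in clone 8. It was the only member with an unadjusted p under 0.05 in each clone, and the difference between them was -0.24 (SE 0.35, edgeR adjusted p 0.719). By DESeq2 the gene passed in clone 4 (adjusted p 0.00515) and in clone 8 (0.0165). In clone 8 edgeR called it without 4OHT clone 8 replicate 1 (0.98, adjusted p 0.0300), with library totals in place of TMM (0.86, adjusted p 0.0446) and over genes with at least 10 counts in every library (0.76, adjusted p 0.0476).

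Dusp2, the gene of a phosphatase best known from activated immune cells, was low in 7 libraries. It stood at 1.47 and 2.38 CPM in vehicle clone 4, 2.13 and 1.58 in 4OHT clone 4, 2.20 and 1.63 in vehicle clone 8, and 1.89 and 13.0 in 4OHT clone 8. The value of 13.0 CPM, from 779 counts, stands alone, and the other libraries of all groups overlap. The log2 fold change in clone 8 was 1.94 (SE 0.85, edgeR adjusted p 0.137), and without that library it was -0.03. DESeq2 called the gene there (1.94, adjusted p 0.0145), and so did edgeR without 4OHT clone 8 replicate 1 (2.75, adjusted p 0.00337). Dusp5 encodes a nuclear phosphatase specific for ERK. It stood at 9.12 and 4.999 CPM in vehicle clone 4, 8.80 and 5.95 in 4OHT clone 4, 8.53 and 7.11 in vehicle clone 8, and 8.37 and 14.0 in 4OHT clone 8. Its groups overlapped in each clone, with log2 fold changes of 0.03 (SE 0.37) in clone 4 and 0.51 (SE 0.35, edgeR adjusted p 0.331) in clone 8; the latter was 0.09 without 4OHT clone 8 replicate 2. An antisense gene shares 547 exonic bases with Dusp5 in GENCODE M21, and the use of strand in the counting is not given in the sources used here, so its counts are uncertain.

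**Figure D2:**
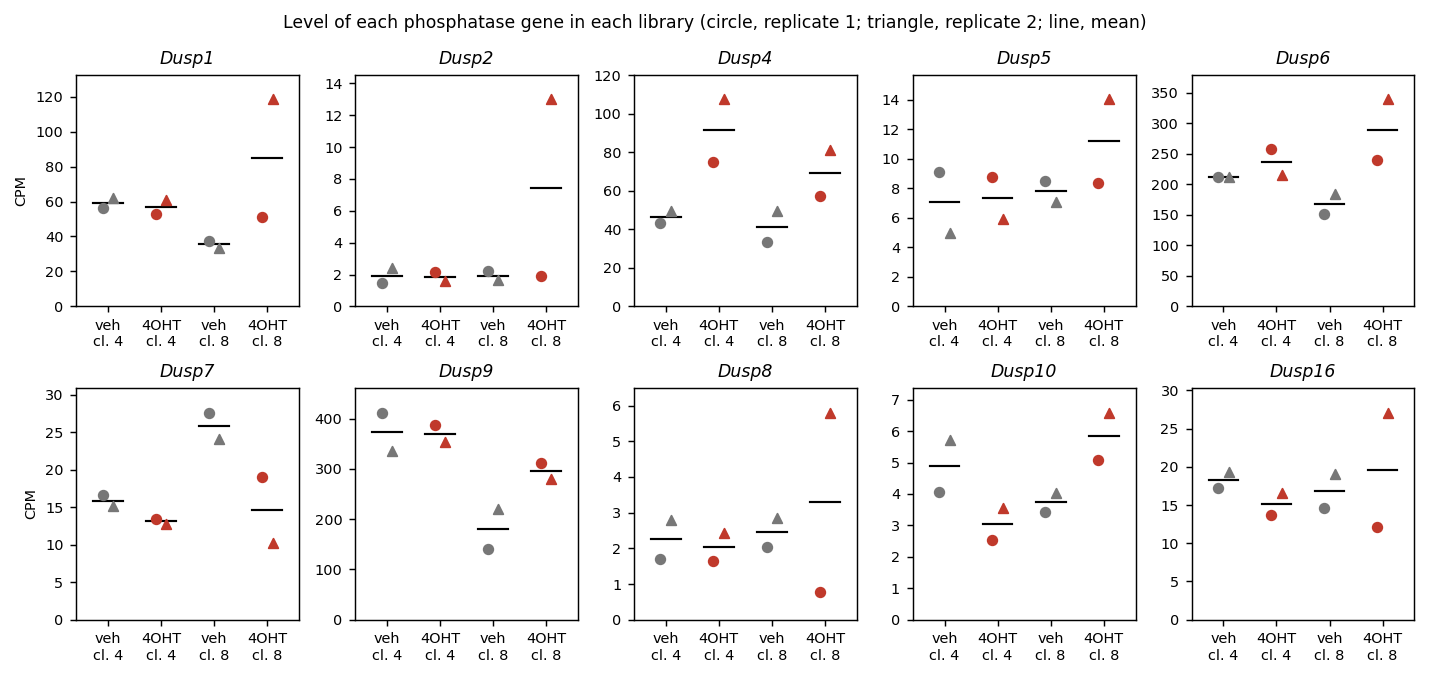
CPM of each gene in each library, by clone and condition, on linear axes from 0; circles are replicate 1, triangles replicate 2, lines group means of 2. The 4OHT libraries of Dusp4 lie above all its vehicle libraries, and the triangle of 4OHT clone 8 stands apart for Dusp1 (118 CPM) and Dusp2 (13.0 CPM).

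Of the cytoplasmic ERK phosphatases, Dusp6 and Dusp9 rose in clone 8, while Dusp7 was lower with 4OHT in each clone without a call. Dusp6 (ENSMUSG00000019960, chromosome 10, 99263231 to 99267489, plus strand) encodes the phosphatase used most widely as a readout of FGF and ERK signalling. It stood at 212.4 and 212.3 CPM in vehicle clone 4, 257 and 215 in 4OHT clone 4, 150.4 and 184 in vehicle clone 8, and 240.0 and 339 in 4OHT clone 8. All 4 4OHT libraries lay above all 4 vehicle libraries, narrowly for 4OHT clone 4 replicate 2. Clone 8 averaged 167 ± 24.0 CPM in vehicle and 289 ± 69.9 CPM with 4OHT (SD, n = 2 per group), which differ by 0.79 on the log2 scale (SE 0.18, edgeR adjusted p 0.0191). Clone 4 averaged 212 ± 0.0875 and 236 ± 29.4 CPM, which differ by 0.15 (SE 0.18, edgeR adjusted p 0.839). The clone 8 call was kept without 4OHT clone 8 replicate 1 (1.02) and without either 4OHT library of clone 4 (0.79 each). It was lost without replicate 2 of 4OHT clone 8 (0.51), on leaving out vehicle clone 8 replicate 1 (0.63) or 2 (0.91), and without either vehicle library of clone 4 (0.76 each).

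Dusp9 (ENSMUSG00000031383, chromosome X, 73639419 to 73643514, plus strand) encodes an ERK phosphatase known from placenta and pluripotent cells. It stood at 412 and 335 CPM in vehicle clone 4, 388 and 353 in 4OHT clone 4, 141 and 221 in vehicle clone 8, and 311 and 281 in 4OHT clone 8. The low libraries were the vehicle pair of clone 8, and the 4OHT pair of clone 8 lay between them and the 4 libraries of clone 4. Clone 8 averaged 181 ± 56.6 CPM in vehicle and 296 ± 21.4 CPM with 4OHT (SD, n = 2 per group). The log2 fold change was 0.71 there (SE 0.19, edgeR adjusted p 0.0357) and -0.01 in clone 4 (SE 0.19, edgeR adjusted p 0.992). The clone 8 call was kept without 4OHT clone 8 replicate 2 (0.78) and without vehicle clone 8 replicate 2 (1.03). It was lost without replicate 1 of either vehicle (0.39) or 4OHT (0.63) in clone 8, and without any 1 library of clone 4 (0.68 to 0.71).

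Dusp7 (ENSMUSG00000053716, chromosome 9, 106368632 to 106375724, plus strand) encodes a close relative of the Dusp6 enzyme. It stood at 16.6 and 15.1 CPM in vehicle clone 4, 13.5 and 12.8 in 4OHT clone 4, 27.6 and 24.2 in vehicle clone 8, and 19.1 and 10.2 in 4OHT clone 8. Both 4OHT libraries lay below both vehicle libraries in each clone, and the lowest value was again in 4OHT clone 8 replicate 2. The log2 fold changes were -0.27 (SE 0.28, edgeR adjusted p 0.808) in clone 4 and -0.82 (SE 0.26, edgeR adjusted p 0.0581) in clone 8. In clone 8 the gene was called by DESeq2 (-0.84, adjusted p 0.0110) and, by edgeR, without 4OHT clone 8 replicate 1 (-1.34); without replicate 2 it was -0.45. It was the only member with a negative log2 fold change in clone 8.

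None of the phosphatases of JNK and p38 was called in either clone. Dusp10 (ENSMUSG00000039384) was the member whose libraries separated in opposite directions in the clones. It stood at 4.06 and 5.71 CPM in vehicle clone 4, 2.53 and 3.56 in 4OHT clone 4, 3.43 and 4.04 in vehicle clone 8, and 5.08 and 6.59 in 4OHT clone 8. Both 4OHT libraries were thus lower in clone 4 and higher in clone 8, with log2 fold changes of -0.65 (SE 0.32, edgeR adjusted p 0.535) and 0.65 (SE 0.31, edgeR adjusted p 0.170). The difference between the clones, 1.30 (SE 0.44), had an edgeR adjusted p of 0.134, which does not pass. Dusp16 stood at 17.3 and 19.3 CPM in vehicle clone 4, 13.7 and 16.6 in 4OHT clone 4, 14.6 and 19.1 in vehicle clone 8, and 12.1 and 27.1 in 4OHT clone 8. Dusp8 stood at 1.71 and 2.80, 1.63 and 2.42, 2.03 and 2.86, and 0.786 and 5.80 CPM in the same groups. For both genes the 4OHT libraries of clone 8 held the lowest and the highest value of all 8, so that no direction can be read. Dusp8 shares 66 exonic bases with a gene on the other strand. Their log2 fold changes in clone 8 were 0.22 (SE 0.34) and 0.42 (SE 0.75), and -0.48 and -1.63 without 4OHT clone 8 replicate 2.

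**Figure D3:**
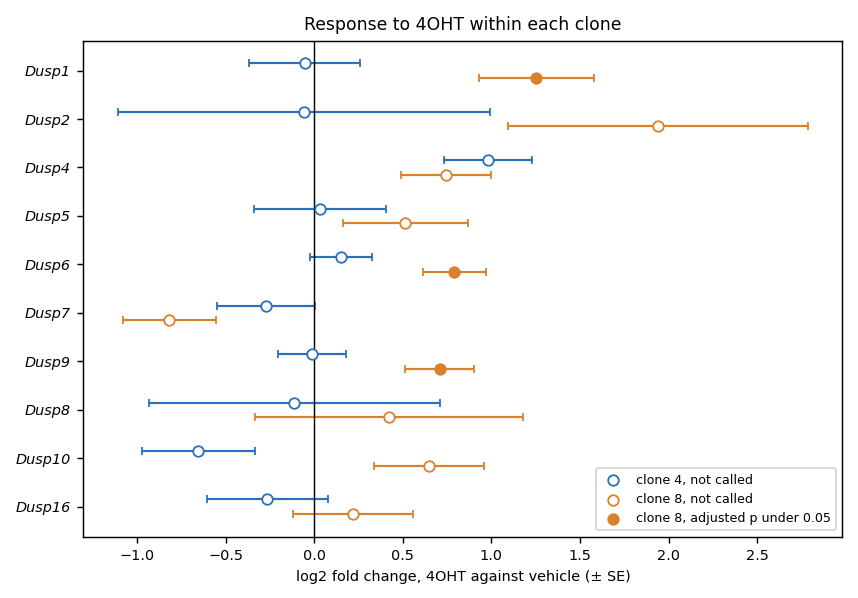
Log2 fold change of 4OHT against vehicle (points, with bars of 1 SE) for each gene in clone 4 (blue) and clone 8 (orange); filled points passed an edgeR adjusted p under 0.05. Dusp1, Dusp6 and Dusp9 in clone 8 are filled, and no gene is in clone 4.

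Counted over the family, 3 of 10 genes were called higher and 0 lower in clone 8, where 8.75% of all tested genes were called higher and 9.34% lower. Of the 3, 2 are cytoplasmic and 1 is nuclear. The median log2 fold change of the 10 was 0.68 in clone 8, against 0.07 over all tested genes, and 9 of 10 were above 0, against 53.7%. In clone 4, 0 of 10 were called (0.0873% of all tested genes were called higher, and none lower) and the median was -0.06, with 3 of 10 above 0 (49.4% of all genes). At an unadjusted p under 0.05, edgeR gave 1 gene in clone 4, Dusp4, where 10.3% of all genes passed, and DESeq2 called that gene at an adjusted p under 0.05, as it did 2.09% of all genes higher. Both 4OHT libraries lay above both vehicle libraries for 2 genes in clone 4 and 5 in clone 8, where 23.7% and 31.7% of all genes did so, and below them for 3 and 1, where 23.8% and 28.3% did. The libraries separated in the same direction in each clone for Dusp4 and Dusp6 (higher, as for 7.29% of all genes) and for Dusp7 (lower, as for 8.69%).

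The calls of Dusp1, Dusp6 and Dusp9 in clone 8 depended on single libraries, and each was lost in some of the fits that left out 1 library. Over those fits the log2 fold change ran from 0.52 to 1.73 for Dusp1, 0.51 to 1.02 for Dusp6 and 0.39 to 1.03 for Dusp9. In a fit of the clone 8 libraries alone none of these passed, with edgeR adjusted p-values of 0.0964 for Dusp1, 0.0777 for Dusp6 and 0.101 for Dusp9. DESeq2 called 5 members higher and 1 lower in clone 8, where it called 11.4% and 12.2% of all tested genes. Without 4OHT clone 8 replicate 2, the log2 fold change was above 0 in clone 8 for 6 genes, against 9.

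**Figure D4:**
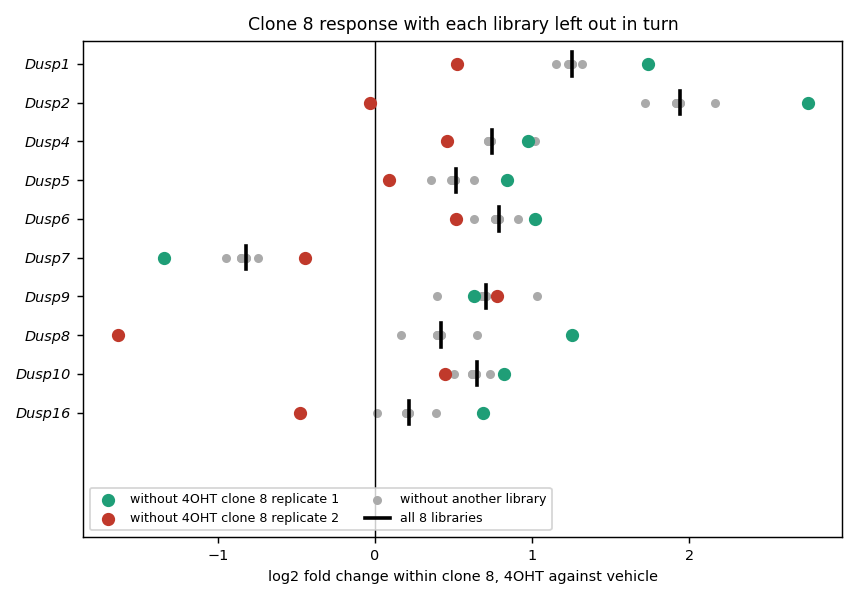
Log2 fold change within clone 8 for each gene in all 8 libraries (black line) and with each library left out in turn (points). The green and red points, which leave out 4OHT clone 8 replicate 1 and 2, mark the ends of most ranges; for Dusp9 they lie at 0.63 and 0.78, and for Dusp8 at 1.25 and -1.63.

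Taken over both clones with clone as a term, 0 of 10 genes were called, where 0.00546% of all genes (1 gene, Esr1) were. The unadjusted p was under 0.05 for Dusp4 (log2 fold change 0.86, SE 0.18, edgeR adjusted p 0.103), Dusp6 (0.47, SE 0.16, edgeR adjusted p 0.184) and Dusp7 (-0.56, SE 0.21, edgeR adjusted p 0.212), as it was for 18.5% of all genes. DESeq2 called 1, Dusp4 (0.85, adjusted p 0.00212), where it called 2.60% of all genes higher, and so did edgeR for the average of the responses of each clone (0.86, adjusted p 0.0295). For Dusp4 and Dusp6 all 4 4OHT libraries were above all 4 vehicle libraries, as for 3.42% of all genes. Dusp4 averaged 43.9 ± 7.62 CPM in vehicle and 80.2 ± 20.8 CPM with 4OHT, and Dusp6 189.9 ± 29.4 and 263 ± 53.5 CPM (SD, n = 4 per condition).

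The response was called in clone 8 for Dusp1, Dusp6 and Dusp9 and not in clone 4, but the difference between the clones passed for 0 of 10 genes, where 2.60% of all genes passed. The log2 difference, clone 8 minus clone 4, was 1.31 (SE 0.45, edgeR adjusted p 0.136) for Dusp1, 0.64 (SE 0.25, edgeR adjusted p 0.171) for Dusp6 and 0.72 (SE 0.27, edgeR adjusted p 0.161) for Dusp9. With Dusp10, these 4 had an unadjusted p under 0.05, as did 23.0% of all genes. DESeq2 called 1, Dusp1 (adjusted p 0.0196), where it called 4.22% of all genes higher. Without 4OHT clone 8 replicate 1, the log2 difference was 1.79 for Dusp1, 2.81 for Dusp2, 0.87 for Dusp6 and -1.07 for Dusp7. Without replicate 2 of that group these were 0.58, 0.03, 0.36 and -0.17.

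The vehicle libraries were compared because each response is read against them. Dusp9 was lower in clone 8 than in clone 4 in vehicle, at 181 ± 56.6 against 374 ± 53.9 CPM (SD, n = 2 per group), or -1.05 on the log2 scale (SE 0.20, edgeR adjusted p 0.0256). It was the single member called of 10, where 3.30% of all genes were called lower and 3.40% higher. DESeq2 called Dusp9 lower (-1.03, adjusted p 2.35e-05) and Dusp7 higher, where it called 8.38% and 8.34% of all genes. Dusp7 pointed the other way, at 25.9 ± 2.44 against 15.9 ± 1.03 CPM (log2 fold change 0.71, SE 0.27, edgeR adjusted p 0.150; DESeq2 adjusted p 0.0403). For Dusp1 the values were 35.6 ± 2.71 and 59.1 ± 3.88 CPM (-0.73, SE 0.33, edgeR adjusted p 0.212), and for Dusp6 167 ± 24.0 and 212 ± 0.0875 CPM (-0.34, SE 0.18, edgeR adjusted p 0.277). The Dusp9 call was lost without vehicle clone 8 replicate 1 (-0.75), either vehicle library of clone 4 (-0.88 and -1.18) or either 4OHT library of clone 4 (-1.05 each), and kept without the other 3. Without either 4OHT library of clone 8, edgeR also called Dusp1 lower and Dusp7 higher. The share of all tested genes called in those fits is not given here, so these calls are not read as a result about the members.

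The sum of the markers of extraembryonic ectoderm, the tissue next to the epiblast, was lowest in vehicle clone 8. Dusp1, Dusp6 and Dusp9 were each lowest in the same libraries, and Dusp7 was highest there. Dusp2, Dusp4, Dusp5, Dusp8, Dusp10 and Dusp16 showed neither pattern. The share of all tested genes with either pattern is not given here. The 12 marker genes summed to 744 and 466 CPM in vehicle clone 4, 598 and 622 in 4OHT clone 4, 195 and 228 in vehicle clone 8, and 745 and 595 in 4OHT clone 8. In clone 8, 8 of the 12 were called higher with 4OHT and 0 lower, against 8.75% and 9.34% of all tested genes. In vehicle 7 of the 12 were called lower in clone 8 than in clone 4, against 3.30% of all tested genes. Elf5, a transcription factor that defines the tissue, stood at 16.4 and 24.3 CPM in vehicle clone 8 and at 55.7 to 95.3 CPM in the other 6 libraries. In vehicle, 2 of the 12 went the other way, Eomes and Sox21, with log2 fold changes above 0 for clone 8 against clone 4. Eomes stood at 39.0 and 26.9 CPM in vehicle clone 4 and at 43.9 and 41.4 CPM in vehicle clone 8. Sox21 stood at 3.18 and 2.20, and at 6.41 and 3.04 CPM in the same groups. The 12 visceral endoderm markers summed to 850 and 521 CPM in vehicle clone 4, 2472 and 2806 in 4OHT clone 4, 1662 and 1746 in vehicle clone 8, and 456 and 1231 in 4OHT clone 8. In clone 8, 3 of these 12 were called lower with 4OHT, as were 4 of the 8 epiblast markers and 9.34% of all tested genes. In clone 4 no marker of these lists was called, where 0.0873% of all tested genes were called higher and none lower. All 12 visceral endoderm markers were above 0 in clone 4, with a median log2 fold change of 1.78. Between the vehicle groups, 4 of these 12 and 2 of the 8 epiblast markers were called higher in clone 8 than in clone 4. Over all tested genes 3.40% were called higher there. All 12 visceral endoderm markers were above 0 in that comparison, with a median of 1.45. The part of any of these tissues in the values of Dusp9 or the other phosphatases was not tested. Mitochondrial genes took 1.35% and 1.19% of counts in 4OHT clone 8 and 0.205% to 0.619% in the other libraries; their part was not tested either.

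**Figure D5:**
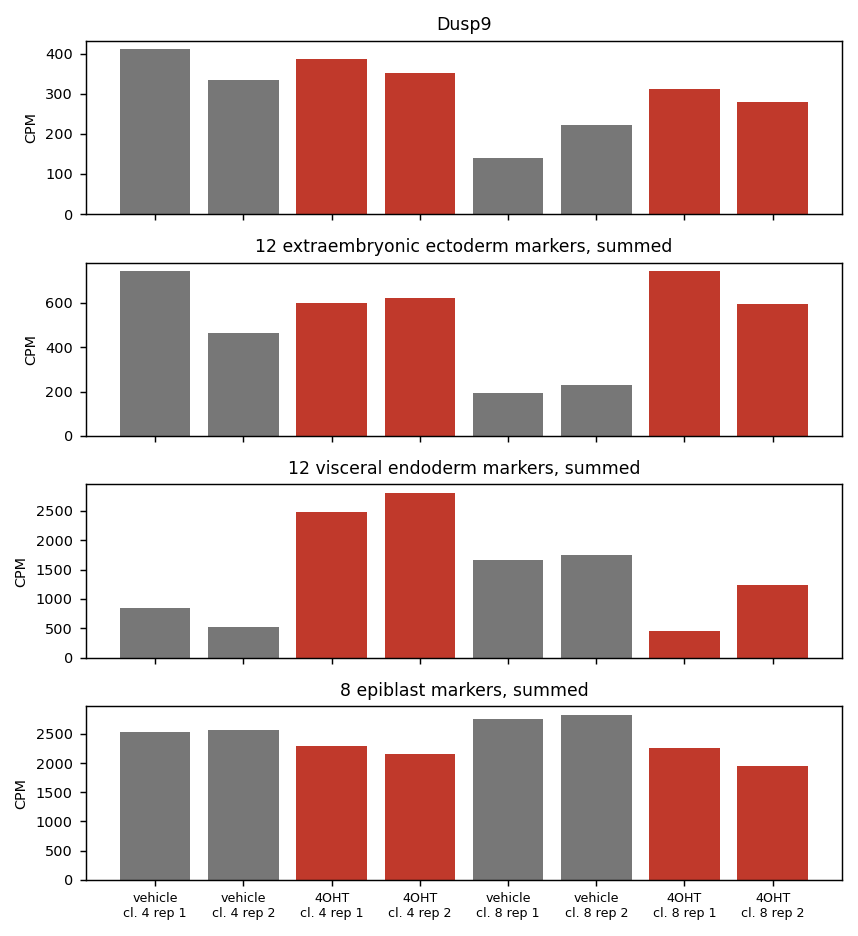
CPM of Dusp9 and summed CPM of 3 marker lists in each library (bars from 0; grey vehicle, red 4OHT). The vehicle libraries of clone 8 are lowest for Dusp9 (141 and 221 CPM) and for the extraembryonic ectoderm markers (195 and 228 CPM). Dusp1 and Dusp6, not plotted here, were also lowest in these libraries. The share of all tested genes that were lowest there is not given.

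The rest of the pathway was read from fixed lists, in which no gene was called in clone 4. Few genes of any kind were called there, 0.0873% of all tested genes higher and none lower. In clone 8, 8.75% of all tested genes were called higher and 9.34% lower, and their median log2 fold change was 0.07. Of 24 immediate early and ETS genes, targets and effectors of ERK, 9 were called higher and 2 lower in clone 8, with a median log2 fold change of 0.74. The lowest p-values were those of Fosl2 (2.496, SE 0.32), Ets2 (1.26, SE 0.18) and Egr1 (5.25, SE 0.78), with edgeR adjusted p-values of 0.00639, 0.00759 and 0.00797. In vehicle, 5 of the 24 were called lower in clone 8 than in clone 4 and 2 higher. Over all tested genes these shares were 3.30% and 3.40%. Ets2 stood at 66.6 and 59.4 CPM in vehicle clone 4, 24.1 and 32.2 in vehicle clone 8, and 60.1 and 74.2 in 4OHT clone 8. Fosl2 stood at 6.28 and 7.26, 2.06 and 2.56, and 10.4 and 15.6 CPM in the same groups. Egr1, an immediate early transcription factor, stood at 8.05 and 18.2 CPM in vehicle clone 4, 55.3 and 75.9 in 4OHT clone 4, 5.77 and 6.11 in vehicle clone 8, and 74.7 and 379 in 4OHT clone 8. Its 4OHT libraries lay above its vehicle libraries in each clone. Its highest value was in 4OHT clone 8 replicate 2, as were those of Dusp1, Dusp2, Dusp5, Dusp6, Dusp8, Dusp10 and Dusp16. Of 6 tested Sprouty and Spred genes, inhibitors of the same pathway, Spry4 was called higher (0.91, SE 0.21, edgeR adjusted p 0.0196) and Spred1 lower (-0.58, SE 0.16, edgeR adjusted p 0.0371). Of 14 tested atypical dual-specificity phosphatases, which lack the kinase-binding domain, Dusp14 was called higher (1.09, SE 0.30, edgeR adjusted p 0.0370) and Dusp23 lower (-2.32, SE 0.46, edgeR adjusted p 0.0136), and the median was 0.07. Dusp23 was at 0.337 to 2.09 CPM in all libraries. Of 8 other phosphatases that act on MAP kinases or their activators, 0 were called higher and 4 lower in clone 8. The 3 with the lowest p-values were Ppp2ca (-1.49, SE 0.22), Ppm1b (-1.22, SE 0.22) and Ppm1a (-0.87, SE 0.17), with edgeR adjusted p-values of 0.00796, 0.0106 and 0.0140. All 4, with Ppp2cb, were also called higher in clone 8 than in clone 4 in vehicle. Of the 10 MAP kinases, 0 were called higher and 2 lower: Mapk3, the gene of ERK1 (-0.87, SE 0.14, edgeR adjusted p 0.00869), and Mapk14, that of p38 alpha (-0.68, SE 0.18, edgeR adjusted p 0.0327).

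Across the 8 libraries, which the points share along with depth and clone, the log2 CPM of Dusp1 followed that of Dusp6 (Pearson r = 0.86, n = 8), and each was the other's nearest member. Dusp7 ran against both, with r = -0.89 for Dusp1 and -0.87 for Dusp6, and against Dusp4 (-0.80). Dusp8 and Dusp16 had the highest value of any pair, 0.94, and both were highest in 4OHT clone 8 replicate 2. Dusp4 was nearest to Dusp6 (0.67), and Dusp9 also to Dusp6 (0.58), while Dusp4 and Dusp5 had r = 0.06. Among 9159 other genes above the median level, the most like Dusp4 were Tob1, Wipf2 and Sirt2 (0.97, 0.96 and 0.96). Among the most like Dusp5 were Hnrnpll and Faf1 (0.98 and 0.97), and among the most like Dusp6 were Trappc9 and Fndc3a (0.98 and 0.96). These values are descriptions of 8 libraries, chosen as the highest of many.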

How the data were processed

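RNA of 8 pools of mouse epiblast was sequenced from low-input cDNA libraries, per the labels' protocols. Reads were demultiplexed with bcl2fastq 2.19.1 and aligned with STAR 2.5.3a to mm10, per the submitters' processing notes; the counting program, annotation release and use of strand are not given in the sources used here. The authors deposited raw read counts per Ensembl gene, with no normalization. Of 52636 identifiers, 52403 were matched to symbols; positions and exonic lengths came from GENCODE M21 (GRCm38).

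Genes were kept by filterByExpr of edgeR 4.0.16 (R 4.3.3; minimum count 10; 18321 genes). Library sizes were scaled by TMM; the prior count of log2 CPM was 2. Quasi-likelihood tests (estimateDisp, glmQLFit with the legacy option off, glmQLFTest) were adjusted by Benjamini-Hochberg over the 18321 genes, with calls made below 0.05. The comparison over both clones had clone as an additive term; the within-clone responses, their difference and the vehicle comparison came from 1 fit of the 4 groups. SE is the log2 fold change divided by the square root of F. Alternatives were RLE factors, library totals, other filters, the legacy option, DESeq2 1.42.0, a threshold of 0.1, a replicate block, fits of 1 clone, other clone terms and each library left out. The procedure was tested on simulated data.

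The members, lists and rules were chosen with earlier results of these data known. Named were all 10 members, up to 3 called genes with the lowest p per list, the 3 genes most correlated with Dusp4, Dusp5 and Dusp6, and Esr1; some genes that this rule takes are not reported here. Elf5, Eomes, Sox21, Ppp2cb, Ptprc and Hbb-bs were named after their values were seen.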

Additional observations from a re-analysis of the deposited data

Results flagged for a closer look

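In each condition the 4 libraries were examined for 1 that stood far from the rest, for each of the 10 phosphatases and for their sum. A library counted as far where its gap to the nearest other value took up most of the range of the 4. This gave 22 groups of 4, of which 2 held such a library, with gaps of 0.86 (Dusp1) and 0.95 (Dusp2) of the range. The rule expects 1.1 by chance for like values in independent groups. That figure is only nominal here, because each group pooled 2 clones and the genes share libraries. Both were 4OHT clone 8 replicate 2. Dusp1 stood there at 118 CPM, where the other 4OHT libraries held 51.4 to 60.7 CPM. Dusp2 stood there at 13.0 CPM, against 1.58 to 2.13 CPM in the other 4OHT libraries.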

How the results depend on the processing

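The 2 libraries per group and the lower depth of the vehicle libraries limit what can be called, and Dusp2 and Dusp8, at a few CPM, had the largest SEs of the 10 genes in each comparison. For settings other than left-out libraries, 491 of 528 values and counts kept their direction and call.

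DESeq2 called more genes than edgeR in every comparison: 1053 against 1 over both clones, 468 against 16 in clone 4, 4308 against 3314 in clone 8, 1864 against 476 for the difference between the clones and 3064 against 1227 for the clones in vehicle. Of the members it called 1 higher over both clones, 1 higher in clone 4, 5 higher and 1 lower in clone 8, 1 higher for the difference, and 1 higher and 1 lower (Dusp9) in vehicle. Dusp1, Dusp6 and Dusp9 were not called in a fit of clone 8 alone. In clone 8, Dusp4 and Dusp7 passed a threshold of 0.1. Dusp4 was also called there with library totals and with a minimum of 10 counts in every library. Over both clones it was called for the mean of the within-clone responses. The share of all tested genes called under these settings of edgeR is not given here. The cause was not tested.

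With the replicate number as a block, edgeR also called Dusp4 higher (adjusted p 0.0207) and Dusp7 lower (adjusted p 0.0364) in clone 8, and Dusp10 over both clones was -0.0029. The share of all tested genes called with the block is not given here. The deviations of same-numbered libraries correlated at 0.0947 in clone 4 and -0.0101 in clone 8, so the numbers were not taken as pairs.

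Under these settings directions turned only for values near 0. Over both clones Dusp16 was 0.044 with library totals and 0.000108 without an expression filter, and Dusp10 was -0.018 with the legacy option, -0.0032 as the mean of the within-clone responses and -0.024 by DESeq2. Dusp9 in clone 4 was 0.0033 with library totals and 0.0018 without a filter, and Dusp2 between the clones in vehicle was -0.0061 without a filter and -0.0052 with the legacy option. The cause was not tested.

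Over the 8 fits that each left out 1 library, the members called higher and lower ranged from 0 to 5 and 0 to 1 in clone 8, from 0 to 3 and 0 to 1 for the difference between the clones, and from 0 to 1 and 0 to 2 for the clones in vehicle. A group left with 1 library was assumed to vary like the others. The share of all tested genes called in these fits is not given here, so the counts are not read as a result about the phosphatases. Values that turned direction ranged as follows. Over both clones these were Dusp2 (-0.045 to 1.55), Dusp8 (-0.61 to 0.57), Dusp10 (-0.19 to 0.25) and Dusp16 (-0.35 to 0.14). In clone 4 they were Dusp1 (-0.16 to 0.037), Dusp2 (-0.38 to 0.32), Dusp5 (-0.32 to 0.55), Dusp9 (-0.15 to 0.14) and Dusp8 (-0.45 to 0.27). In clone 8 they were Dusp2 (-0.029 to 2.75), Dusp8 (-1.63 to 1.25) and Dusp16 (-0.48 to 0.69). For the difference between the clones they were Dusp4 (-0.52 to 0.044), Dusp5 (-0.058 to 0.81), Dusp8 (-1.52 to 1.37) and Dusp16 (-0.21 to 0.95). For the clones in vehicle they were Dusp2 (-0.30 to 0.40), Dusp4 (-0.46 to 0.10), Dusp5 (-0.21 to 0.66), Dusp8 (-0.19 to 0.52) and Dusp16 (-0.31 to 0.070).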
